A study of Mus musculus with 2 samples.

Results

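The nuclei described here, called Tfap2d neurons after the gene that selected them, came from the mouse subventricular zone (SVZ), a germinal layer beside the lateral ventricle that goes on producing cells after birth. Nuclei were chosen by their UMIs of 11 genes. A nucleus was a Tfap2d neuron if it held at least 1 UMI (unique molecular identifier, a tag that counts an RNA molecule once) of Tfap2d, UMIs of at least 3 of the 7 genes Abi3bp, Tafa1, Ndst4, Tafa2, Cdh12, Cntn6 and Kcnip4, at most 2 UMIs of Rarb and Drd2 together, and no UMI of Lhx6. Of 28964 nuclei with at least 500 genes and at most 5% mitochondrial UMIs, 557 met the rule: 398 of 12114 in the MIP library and 159 of 16850 in the control library. MIP stands for a modelled intestinal perforation. Mice were given it, or kept as healthy controls, on postnatal day 5, and the SVZ was removed and frozen 48 h later, on postnatal day 7. The labels name no strain, sex, number of animals or time of day for either library. Each group is 1 library, so no difference between MIP and control has a replicate check, no test was made, and every interval below is an exact 95% interval that covers counting error only.

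Tfap2d encodes AP-2 delta, a member of the AP-2 family of transcription factors, which bind as dimers to GC-rich palindromes and act in the development of several tissues. In the mouse brain AP-2 delta is best known from the developing midbrain roof, where it is needed for neurons of the inferior colliculus, and from projection neurons of the retina. Neurons that release glutamate load it into vesicles with the transporters made from Slc17a6, Slc17a7 or Slc17a8, while neurons that release GABA make it with the enzymes of Gad1 and Gad2.

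The MIP library held 12366 barcodes with 100823376 UMIs and the control library 16964 barcodes with 146730970 UMIs. Median depth of the kept nuclei was 6488.5 UMIs in the MIP library and 6206.5 UMIs in the control library. The Tfap2d neurons were deeper, with medians of 12779.5 UMIs in MIP and 13818 UMIs in control nuclei, and their UMIs summed to 5529342 and 2598037. The libraries shared 115 barcodes, and no shared barcode was a Tfap2d neuron in both. The MIP Tfap2d neurons held 6 UMIs of Xist and 2203 UMIs of 4 Y-linked genes, whereas the control Tfap2d neurons held 4515 UMIs of Xist and 1 UMI of the Y-linked genes. MIP and sex therefore cannot be told apart in any comparison of the libraries. Cluster 0 of the joint clustering, with a median of 1127 UMIs per nucleus in MIP and 1128 in control, took up 47 MIP nuclei and 3452 control nuclei, which lowers every control share of all nuclei.

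Tfap2d was the narrowest condition of the rule, but the other steps removed a larger part of the control nuclei. They kept 73.0% of MIP and 55.8% of control nuclei with a Tfap2d UMI. Before any other step, 545 MIP nuclei and 285 control nuclei held a Tfap2d UMI, and 505 and 231 of these met the condition on the 7 genes. That condition alone was met by 51.2% of all MIP nuclei and 41.9% of all control nuclei, and of the nuclei with Tfap2d it left out 40 in MIP and 54 in control. The limit on Rarb and Drd2, which mark striatal spiny projection neurons, took the numbers to 414 and 170, and the absence of Lhx6, a gene of interneurons, to 398 and 159. Of the Tfap2d neurons, 160 in MIP (40.2%) and 52 in control (32.7%) held exactly 1 Tfap2d UMI, the lowest number the rule allows. The highest number was 22 UMIs in MIP and 23 UMIs in control.

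The values on both sides of the thresholds were as follows. A Slc17a6 or Slc17a7 UMI was found in 75.6% of MIP and 73.1% of control nuclei with 1 Tfap2d UMI, and in 82.8% of MIP and 86.0% of control nuclei with at least 2. The 49 MIP and 11 control Tfap2d neurons with exactly 3 of the 7 genes, just inside the rule, held such a UMI in 59.2% and 63.6%, a Gad1 or Gad2 UMI in 22.4% and 72.7%, and Abi3bp at 4.29 CPM and 0 CPM. Nuclei that held Tfap2d and exactly 2 of the 7 genes fell outside the rule. They numbered 13 in MIP and 18 in control, and 53.8% and 50.0% of them held a Slc17a6 or Slc17a7 UMI, at median depths of 5952 and 4158 UMIs. Nuclei removed for more than 3 Rarb and Drd2 UMIs numbered 76 in MIP and 54 in control. They were deep, with medians of 22502 UMIs in MIP and 24544 UMIs in control, and 90.8% and 98.1% of them held a Gad1 or Gad2 UMI.

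Tfap2d itself (chromosome 1, bases 19103022 to 19166346 of mm10, plus strand) averaged 203 CPM (UMIs of the gene per 1000000 UMIs, both summed over the nuclei) in MIP Tfap2d neurons and 237 CPM in control Tfap2d neurons. All other nuclei held 4.02 CPM in MIP and 2.71 CPM in control. A Tfap2d UMI was found in 0.605% of MIP and 0.606% of control spiny projection neurons, which set the background level in nuclei of similar depth (medians 9405.5 and 11579 UMIs). Among microglia it was found in 0.443% of MIP and 0.713% of control nuclei, at medians of 2909 and 3495 UMIs. These values were used by the rule and only describe it. The other 4 AP-2 genes, Tfap2a, Tfap2b, Tfap2c and Tfap2e, held between 0 and 2 UMIs each over all Tfap2d neurons of a library, so Tfap2d was the AP-2 gene counted above that level.

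The first comparison asks how common Tfap2d neurons were in each library. They made up 3.29% of MIP nuclei (interval 2.98% to 3.62%) and 0.944% of control nuclei (interval 0.803% to 1.10%), a 3.48-fold higher share in MIP, or 1.80 on the log2 scale (interval 1.53 to 2.07). Because a rule that counts UMIs finds more in deeper nuclei, every nucleus was also thinned at random to 3000 UMIs. The share was then 1.97% in MIP and 0.605% in control, a log2 ratio of 1.70 (interval 1.31 to 2.11), after 2485 MIP and 4626 control nuclei with fewer UMIs were left out. Outside cluster 0 the shares were 3.30% of MIP and 1.18% of control nuclei, a log2 ratio of 1.48. Among nuclei with a Slc17a6 or Slc17a7 UMI, 13.2% in MIP and 4.65% in control were Tfap2d neurons, 2.83-fold more in MIP. Nuclei with a Tfap2d UMI, before the other steps of the rule, made up 4.50% of MIP and 1.69% of control nuclei. Their log2 ratio was 1.41 (interval 1.20 to 1.62), below the 1.80 of the full rule.

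The same ratio was smaller for each of 8 other classes found by marker rules. It was 0.20 for Slc17a6 excitatory nuclei (interval -0.11 to 0.52) and 0.45 for nuclei with Hs3st4 (interval 0.20 to 0.70). Nuclei with Hs3st4 were chosen as deep-layer excitatory neurons, but 58.1% of them in MIP and 66.5% in control held a Gad1 or Gad2 UMI, so they are named here by that gene alone. Microglia had the highest of the 8 ratios, 0.58 (interval 0.38 to 0.77), and astroglia the lowest, -0.14 (interval -0.30 to 0.01). Differences between these ratios were not tested, and a share of nuclei does not give a number of cells in the tissue.

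**Figure D1:**
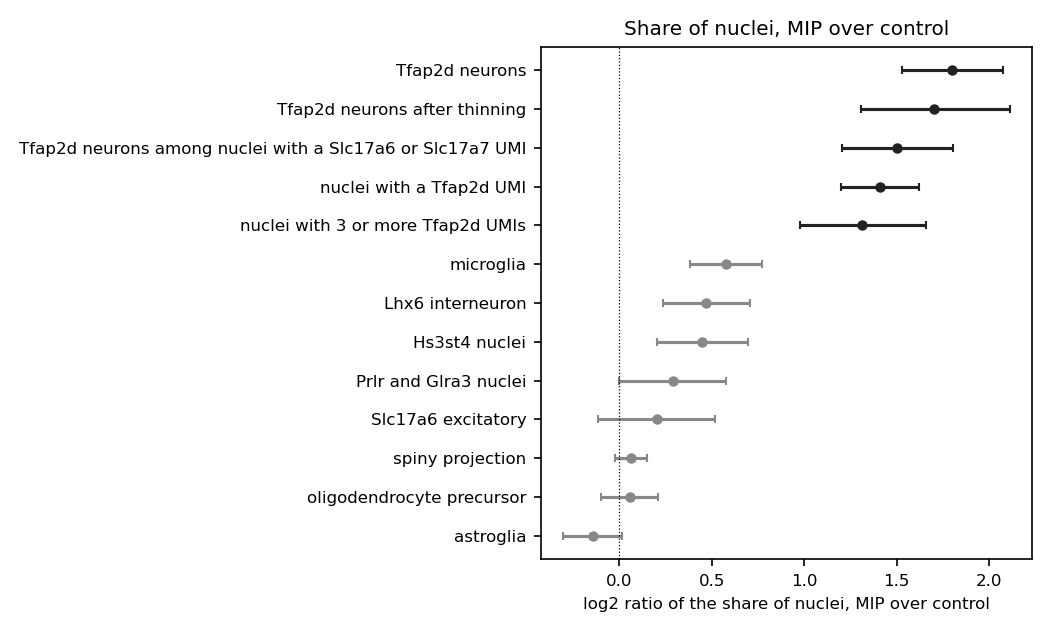
Log2 ratio of the share of nuclei, MIP over control (x axis), for the Tfap2d neurons under several definitions (black) and for 8 other classes found by marker rules (grey), each with its exact 95% interval. The definitions that rest on Tfap2d lie between 1.32 and 1.80, and microglia, the highest of the other classes, lie at 0.58.

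The second comparison asks what the Tfap2d neurons are, from genes the rule did not use. They were glutamatergic by their vesicular transporters. A Slc17a6 or Slc17a7 UMI was found in 318 of 398 MIP nuclei (79.9%, interval 75.6% to 83.7%) and in 130 of 159 control nuclei (81.8%, interval 74.9% to 87.4%). Slc17a6 stood at 85.5 CPM in MIP and 85.4 CPM in control Tfap2d neurons, against 23.8 CPM and 20.2 CPM in all other nuclei. Slc17a7 stood at 84.1 CPM in MIP and 76.2 CPM in control Tfap2d neurons, against 22.8 CPM and 17.7 CPM in all other nuclei. Both transporters were counted together in 30.4% of MIP and 27.7% of control Tfap2d neurons, Slc17a6 alone in 25.4% and 30.8%, and Slc17a7 alone in 24.1% and 23.3%. In the adult, cortical neurons use mainly Slc17a7 and thalamic and midbrain neurons Slc17a6.

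GABA genes stayed near the background. Gad1 or Gad2 was counted in 32.4% of MIP and 45.3% of control Tfap2d neurons. After thinning to 3000 UMIs the shares were 14.1% in MIP and 17.7% in control, below those of microglia, which lack the genes and gave 26.9% in MIP and 38.1% in control. Slc17a6 or Slc17a7, thinned the same way, was counted in 38.4% of MIP and 39.9% of control Tfap2d neurons, above 8.02% of MIP and 7.33% of control microglia. The 4 genes of GABA transmission summed to 118 CPM in MIP and 141 CPM in control Tfap2d neurons, against 661 CPM and 675 CPM in all other nuclei, and each of the 4 was at least 2-fold lower than in all other nuclei in both libraries. Of the Tfap2d neurons, 23 in MIP (5.78%) and 14 in control (8.81%) held a Gad UMI and no Slc17a6 or Slc17a7 UMI. The rule itself lowers the GABA values, because nuclei with Tfap2d that it removed held more Gad1 and Gad2. Together these stood at 248 CPM in MIP and 227 CPM in control nuclei with over 3 Rarb and Drd2 UMIs. In those removed with exactly 1 Lhx6 UMI they stood at 358 CPM and 295 CPM.

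Among transcription factors, those of the developing pallium, the roof of the forebrain that forms cortex, hippocampus and part of the amygdala, included several that stood above other nuclei. Tbr1, which specifies early-born projection neurons, stood at 35.1 CPM in MIP and 30.4 CPM in control Tfap2d neurons, against 9.63 CPM and 8.04 CPM in all other nuclei. Zbtb18, a repressor needed for cortical neuron differentiation, stood at 32.9 CPM in MIP and 48.9 CPM in control, against 10.1 CPM and 12.9 CPM. Neurod2 and Neurod6, factors of maturing pallial excitatory neurons, stood at 32.6 CPM and 44.7 CPM in MIP, and at 48.9 CPM and 61.2 CPM in control Tfap2d neurons. Of the 13484 genes with at least 20 UMIs over the Tfap2d neurons of both libraries, 2.58% in MIP and 3.75% in control were at least 2-fold higher than in all other nuclei, and 5.9% and 7.59% at least 2-fold lower. That limit on UMIs leaves out genes that were very low in Tfap2d neurons, so counts of lower genes are too small. Of 34 pallial transcription factors that passed it, of 37 measured, 10 were at least 2-fold higher in each library and 5 at least 2-fold lower. The summed level of all 37 was not higher, at 5057 CPM in MIP and 5667 CPM in control Tfap2d neurons, against 5668 CPM and 6136 CPM in all other nuclei. Of 16 genes of amygdala excitatory neurons that passed, of 17 measured, 7 were at least 2-fold higher in each library, and 2 in MIP and 1 in control at least 2-fold lower. Of 9 hippocampal genes that passed, of 13, 0 were at least 2-fold higher and 4 lower in each library. Factors of the subpallium, the floor of the forebrain that forms striatum and interneurons, had 14 of 26 past the limit on UMIs, 0 of them at least 2-fold higher and 14 lower in MIP and 13 lower in control. The rule itself limits Rarb and Drd2 and excludes Lhx6, genes of striatal neurons and interneurons. Low subpallial factors thus follow in part from the selection and are no independent sign of identity. The 27 factors of midbrain and hindbrain summed to 3.07 CPM in MIP and 8.08 CPM in control Tfap2d neurons. In all other nuclei they summed to 7.17 CPM and 9.50 CPM. In the Tfap2d neurons 19 of them were at 0 UMIs in each library, and 0 passed the limit on UMIs. The list was thus near the floor in all nuclei and says little about identity.

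The 25 genes outside the rule with the highest ratio to all other nuclei in both libraries, ordered by the lower of their 2 ratios, add surface and matrix proteins and many transcripts of unknown role. Prdm8, a transcription regulator that acts in the wiring of cortical and retinal neurons, stood at 52.4 CPM in MIP and 31.6 CPM in control Tfap2d neurons, against 8.94 CPM and 5.24 CPM in all other nuclei. Epha3, a receptor for ephrin-A ligands in axon guidance, stood at 717 CPM in MIP and 519 CPM in control, against 167 CPM and 134 CPM, and was counted in 83.9% and 62.9% of Tfap2d neurons. Antxr2, a collagen receptor, had log2 ratios of 2.50 in MIP and 2.59 in control. Met, the receptor of hepatocyte growth factor, had ratios of 2.16 and 2.36, and C1ql3, a secreted synaptic organiser, ratios of 2.23 and 2.83. Boc, a co-receptor for hedgehog proteins, Ntng2, a membrane-anchored netrin, Fat4, a giant cadherin, and Vegfc, a growth factor for lymphatic vessels, also belonged to the 25. Since the clusters and the rule use these same nuclei, the ratios describe the nuclei and no test was made. Several transcripts rested on few nuclei: the 10 highest MIP nuclei held 93.5% of the 62 MIP UMIs of 3110099E03Rik and 59.3% of the 477 of Gm34544, but 14.0% of those of Slc17a7.

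**Figure D2:**
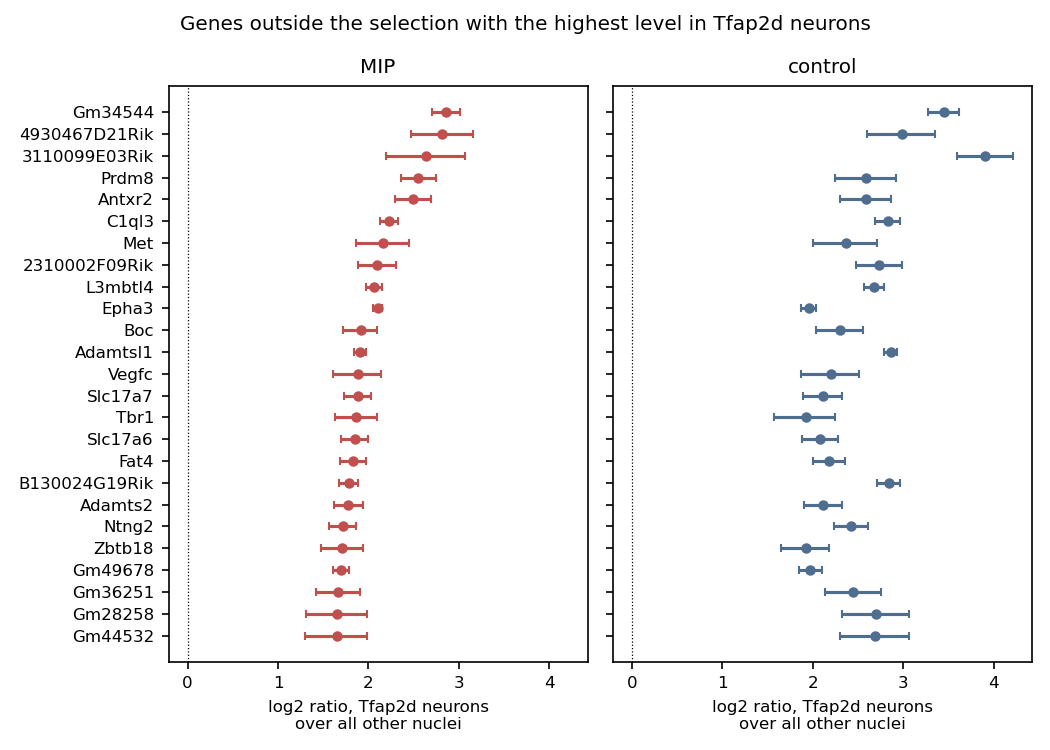
Log2 ratio of CPM in Tfap2d neurons over all other nuclei (x axis) for the 25 genes outside the rule with the highest ratio in both libraries, in the MIP library (left) and the control library (right), with exact 95% intervals. The highest MIP ratio is 2.86, of Gm34544, and the highest control ratio 3.91, of 3110099E03Rik; Slc17a7, Tbr1, Slc17a6 and Zbtb18 lie between 1.71 and 2.11.

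The promoters of these genes were read for the letters of the AP-2 palindrome, since the factor that chose the nuclei binds such letters. Promoter windows of the 250 bases before an annotated start were taken from RefSeq on the build GRCm38.p6, where 20 of the 25 genes had an entry. The letters searched were GCCNNNGGC, which read the same on both strands. They were present in at least 1 window of 2 of the 20 genes (10%), Zbtb18 and Gm36251, against 15.4% of 27025 genes in the table. The windows of Tfap2d and of the 5 of the 7 other selecting genes with an entry held none. The window before the start of Tfap2d, and the window of Zbtb18 with its match in capitals, beginning 215 bases before the start, are given below for reference, both on the plus strand of chromosome 1, at chr1:19102772-19103021 and chr1:177442101-177442350.
Tfap2d: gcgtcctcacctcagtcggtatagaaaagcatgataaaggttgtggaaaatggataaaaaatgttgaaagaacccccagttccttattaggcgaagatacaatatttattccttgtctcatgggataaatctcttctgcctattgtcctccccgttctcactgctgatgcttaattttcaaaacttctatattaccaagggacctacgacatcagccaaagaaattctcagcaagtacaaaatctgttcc
Zbtb18: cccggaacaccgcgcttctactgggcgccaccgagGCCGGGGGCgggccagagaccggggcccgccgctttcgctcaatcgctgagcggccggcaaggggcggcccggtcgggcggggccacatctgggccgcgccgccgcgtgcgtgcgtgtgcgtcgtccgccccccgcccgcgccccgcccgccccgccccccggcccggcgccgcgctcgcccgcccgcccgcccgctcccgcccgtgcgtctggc

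Markers of other cells were lower in the Tfap2d neurons than in other nuclei, but not absent. Spiny projection markers summed to 881 CPM in MIP and 956 CPM in control Tfap2d neurons, against 3129 CPM and 3685 CPM in all other nuclei, with 10 of the 11 markers past the limit on UMIs at least 2-fold lower in each library; the rule itself limits Rarb and Drd2. Astroglial markers summed to 483 CPM and 491 CPM, against 1249 CPM and 1298 CPM, with 9 of 10 at least 2-fold lower. Microglial markers summed to 81.9 CPM and 98.9 CPM, against 202 CPM and 199 CPM. Of the 10 astroglial, 10 microglial and 12 spiny projection markers, 0 were at 0 UMIs in either library. Whether these UMIs came from other cells or from the Tfap2d neurons themselves was not tested, nor was their part in the results. The 29 neuropeptide genes summed to 258 CPM in MIP and 341 CPM in control, against 536 CPM and 774 CPM in all other nuclei.

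The third comparison asks whether Tfap2d neurons are 1 population. All 28964 nuclei of both libraries were clustered together with the 11 genes of the rule kept out. Tfap2d neurons fell mainly into 2 of 41 clusters. Cluster 6 held 191 MIP Tfap2d neurons (48.0%, interval 43.0% to 53.0%) and 105 control ones (66.0%, interval 58.1% to 73.3%). Cluster 20 held 135 MIP Tfap2d neurons (33.9%, interval 29.3% to 38.8%) and 22 control ones (13.8%, interval 8.88% to 20.2%). Cluster 17, with Nr4a2 among its leading genes, held 28 in MIP (7.04%) and 6 in control (3.77%). An Nr4a2 UMI was counted in 18 of the 28 and in 4 of the 6. The other 44 MIP and 26 control Tfap2d neurons were spread over 15 and 14 clusters, among them 11 MIP and 5 control nuclei in cluster 12, whose leading genes were astroglial. These intervals cover counting error only, and with 1 library per group they do not measure how far such shares vary between animals.

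**Figure D3:**
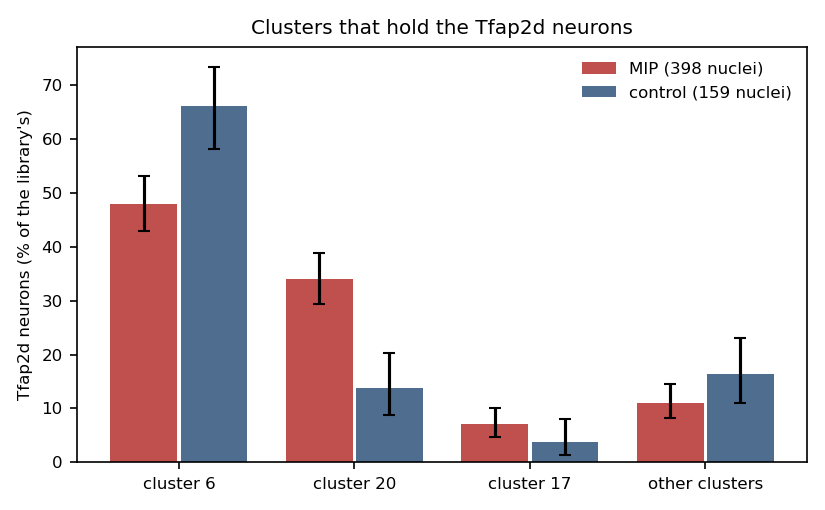
Share of each library's Tfap2d neurons (y axis, percent) found in clusters 6, 20 and 17 and in all other clusters, for the 398 MIP nuclei (left bars) and the 159 control nuclei (right bars), with exact 95% intervals. Cluster 6 holds 48.0% of MIP and 66.0% of control Tfap2d neurons, and cluster 20 holds 33.9% and 13.8%.

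The ratio of MIP to control was higher for the Tfap2d neurons of cluster 20. As a share of all kept nuclei, Tfap2d neurons of cluster 6 were 1.58% in MIP and 0.623% in control, a log2 ratio of 1.34 (interval 0.99 to 1.70). Those of cluster 20 were 1.11% in MIP and 0.131% in control, a log2 ratio of 3.09 (interval 2.44 to 3.81), and those of cluster 17 had a ratio of 2.70 (interval 1.40 to 4.26). Median depth over all nuclei of cluster 20 was 9478 UMIs in MIP and 5144 UMIs in control, whereas cluster 6 had 13978 UMIs in MIP and 16800 UMIs in control. The rule counts UMIs, and the part of this depth gap in the ratio of 3.09 was not tested. Cluster 20 as a whole held 253 MIP nuclei and 91 control nuclei, and with 1 library per group a cluster mostly from 1 library may be that library and not a type of neuron. Its leading gene, Eomes, a T-box factor of intermediate progenitors and of mitral cells, had no UMI in its 135 MIP and 22 control Tfap2d neurons, which allows up to 2.22% and 13.6% of these nuclei with a UMI. A finer clustering at resolution 2 held a cluster of 182 MIP nuclei, 101 of them Tfap2d neurons, and 11 control nuclei, 9 of them Tfap2d neurons. Another held 75 MIP nuclei, 36 of them Tfap2d neurons, and 81 control nuclei, 13 of them Tfap2d neurons.

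Tfap2d neurons of both clusters carried glutamate transporters. A Slc17a6 or Slc17a7 UMI was found in 86.7% of MIP and 90.9% of control nuclei of cluster 20, and in 80.6% of MIP and 83.8% of control nuclei of cluster 6. The level of both transporters together was higher in cluster 20, with 244 CPM there and 150 CPM in cluster 6 in MIP, and 262 CPM and 145 CPM in control. Epha3 stood at 1642 CPM in cluster 20 and 347 CPM in cluster 6 in MIP, and at 2501 CPM and 250 CPM in control. Antxr2 stood at 121 CPM in cluster 20 and 23.2 CPM in cluster 6 in MIP, and at 166 CPM and 34.0 CPM in control. Kit, the receptor of stem cell factor, had log2 ratios of cluster 20 over cluster 6 of 2.70 in MIP and 2.70 in control, from 21 to 33 UMIs in cluster 20 and 10 to 22 UMIs in cluster 6. Reln, the secreted guide of migrating neurons, stood at 103 CPM in cluster 20 and 27.0 CPM in cluster 6 in MIP, and at 46.2 CPM and 9.64 CPM in control. In the other direction, Samd5, which encodes a protein with a sterile alpha motif, stood at 5.46 CPM in cluster 20 and 129 CPM in cluster 6 in MIP, and at 3.85 CPM and 141 CPM in control. The transcript B130024G19Rik had 7 UMIs in cluster 20 and 737 UMIs in cluster 6 in MIP, and 0 UMIs and 460 UMIs in control. These genes took part in the clustering, so the differences describe the 2 clusters.

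The fourth comparison asks how gene levels in Tfap2d neurons differed between MIP and control. Of 13484 genes with at least 20 UMIs over both libraries, 770 (5.71%) were at least 1.5-fold higher in MIP and 2402 (17.8%) at least 1.5-fold lower. The median gene had a log2 ratio of -0.12. In all other nuclei the same median was -0.20, with 2.92% of 23114 genes at least 1.5-fold higher and 20.2% lower, so a lean to lower values was common to both. Scaling with TMM factors, which centre the bulk of the genes, moved every ratio up by 0.16 and gave 1358 genes higher and 1526 lower. With nuclei thinned to 3000 UMIs, 952 genes were higher and 980 lower. The higher genes were thus 24.3% of those past 1.5-fold as computed from all UMIs, 47.1% with TMM and 49.3% after thinning. Intervals lay wholly past 1.5-fold for 76 genes higher in MIP and 300 lower.

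Galntl6 had the most UMIs of the genes named here as lower in MIP. It is a relative of the enzymes that start O-linked sugar chains on proteins (chromosome 8, bases 57774052 to 58912640 of mm10, minus strand). It stood at 2035 CPM in MIP and 8083 CPM in control Tfap2d neurons, a log2 ratio of -1.99 (interval -2.02 to -1.96). It was counted in 335 of 398 MIP nuclei and 150 of 159 control nuclei. The difference was present in both clusters, at 2651 CPM in MIP and 10220 CPM in control nuclei of cluster 6, and at 1007 CPM and 6574 CPM in those of cluster 20. In other nuclei Galntl6 did not lie below control: its log2 ratio was 0.31 in Slc17a6 excitatory nuclei, 0.20 in spiny projection neurons and 0.18 over all other nuclei. A test of that difference between classes was not possible with 1 library per group. The 10 highest nuclei held 21.3% of its UMIs in MIP and 41.0% in control, and the mean of per-nucleus proportions, which weights every nucleus alike, gave a log2 ratio of -1.92. Without the Tfap2d neurons of cluster 6 the ratio was -1.39.

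Foxp2, a transcription factor of deep-layer and striatal neurons, stood at 54.1 CPM in MIP and 152 CPM in control Tfap2d neurons, a log2 ratio of -1.49 (interval -1.71 to -1.27). It was lower in both clusters, with ratios of -1.23 in cluster 6 and -2.91 in cluster 20, and the 10 highest nuclei held 73.6% of its MIP and 77.2% of its control UMIs. Slc17a6 excitatory nuclei had lower Foxp2 too, with a ratio of -0.90, against -0.04 over all other nuclei. Thap3, a zinc finger gene, was at 25.1 CPM in MIP and 76.6 CPM in control, and was counted in 27.4% of MIP and 65.4% of control Tfap2d neurons. Its ratio of -1.61 was shared by other nuclei, with -1.16 over all of them. Samd9l, an interferon-inducible gene, had 26 UMIs in MIP and 67 in control and a ratio of -2.46. Bcar3, an adaptor in adhesion signalling, had 38 and 94 UMIs, with 80.9% of its control UMIs in 10 nuclei, and Rasef, a Rab-like GTPase, had 46 and 84 UMIs, with 96.4% of its control UMIs in 10 nuclei. Cpa6, a secreted carboxypeptidase, and the transcripts Gm20559, 3110099E03Rik and Gm29260 completed the 10 lowest, with log2 ratios of -2.13, -2.43, -1.94 and -1.91. Gm29260 was lower in other nuclei too, with -1.48 over all of them. In cluster 20 the 22 control nuclei gave few UMIs of these genes, and Gm20559, with 7 UMIs in MIP and 1 in control, had a ratio of 0.31 there (interval -2.65 to 5.80).

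Ptprt led the genes that were higher in MIP. It encodes a receptor-type tyrosine phosphatase at synapses (chromosome 2, bases 161521990 to 162661147 of mm10, minus strand). It stood at 1389 CPM in MIP and 523 CPM in control Tfap2d neurons, a log2 ratio of 1.41 (interval 1.33 to 1.49), and was counted in 85.2% and 63.5% of nuclei. The ratio was 1.49 in cluster 6 and 0.54 in cluster 20, where the level was higher in both libraries, at 2613 CPM in MIP and 1800 CPM in control. Cluster 20 held a larger share of the MIP Tfap2d neurons, and its part in the value over all of them was not tested. Reln, also higher in cluster 20 than in cluster 6, had 290 UMIs in MIP and 52 UMIs in control and a ratio of 1.39, with 1.48 in cluster 6 and 1.16 in cluster 20.

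Of the other 8 genes highest in MIP, Unc13c, Hspa14, Sorcs3 and Mtmr10 were higher in both clusters, and so was Pik3r3, although its interval in cluster 20 reached 0. Unc13c, a factor that readies synaptic vesicles for release, stood at 222 CPM in MIP and 95.5 CPM in control, with a ratio of 1.22. Hspa14, a chaperone of the ribosome, stood at 61.5 CPM and 23.5 CPM, with a ratio of 1.39, and was higher in all other nuclei too, with 0.93. Pik3r3, a regulatory subunit of phosphoinositide 3-kinase, had a ratio of 1.23, Sorcs3, a sorting receptor at synapses, 1.17, and Mtmr10, a myotubularin relative, 1.71. Trps1, a GATA-type repressor, had a ratio of 1.25, which was 1.70 in cluster 6 and -0.55 in cluster 20 (interval -1.08 to 0.02). Ebf1, a factor of striatal projection neurons, had a ratio of 1.59, which was 0.70 as a mean of per-nucleus proportions and 3.78 with at least 2 Tfap2d UMIs, and the 10 highest MIP nuclei held 93.4% of its UMIs. It was -0.91 in cluster 20 (interval -3.40 to 2.43). Igf1, the insulin-like growth factor, had 120 UMIs in MIP and 16 in control, spread over 39 and 8 nuclei, with a ratio of 1.82 overall and 0.29 in cluster 6 (interval -1.40 to 2.19).

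**Figure D4:**
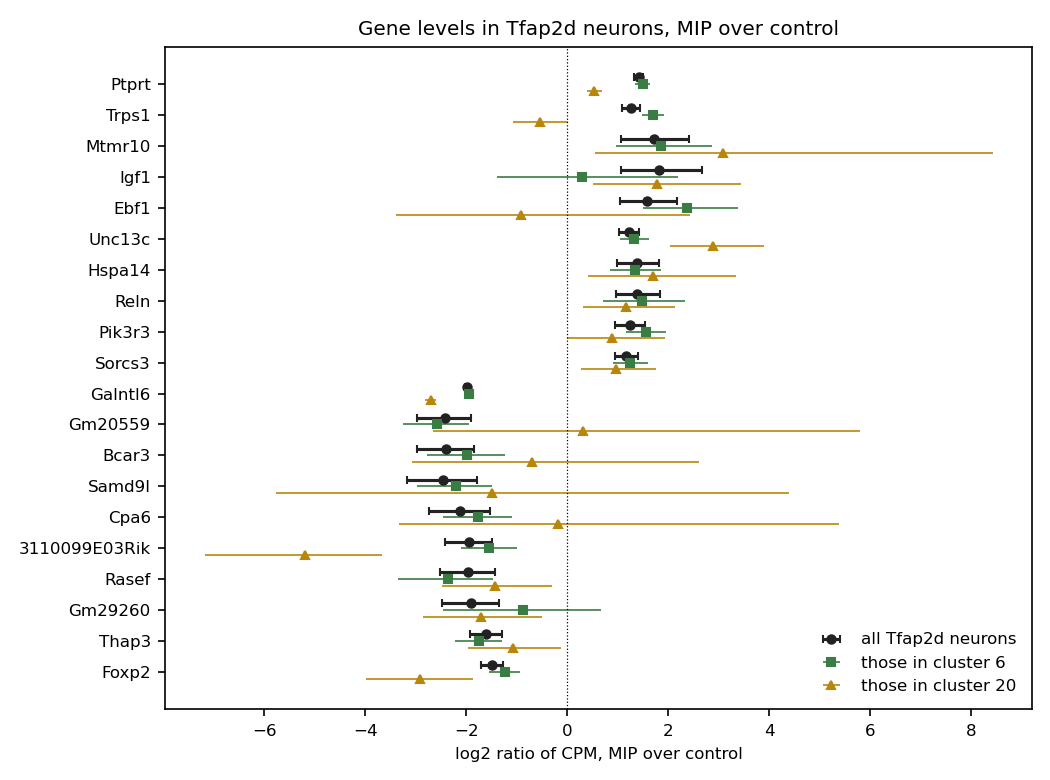
Log2 ratio of CPM, MIP over control (x axis), for the 10 genes named as higher and the 10 named as lower in MIP, in all Tfap2d neurons (circles), those in cluster 6 (squares) and those in cluster 20 (triangles), with exact 95% intervals. Galntl6 lies at -1.99, -1.95 and -2.71 in the 3 sets, while Trps1, Ebf1 and Gm20559 change sign in cluster 20.

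The genes that chose the nuclei differed in opposite ways between the libraries and are given as description. Tafa2, a secreted neurokine-like protein, stood at 2452 CPM in MIP and 1262 CPM in control (log2 ratio 0.96), and its relative Tafa1 at 3530 CPM and 2618 CPM (0.43). Both were also higher over all other nuclei, with ratios of 0.79 and 1.20. Abi3bp, an extracellular matrix protein, stood at 235 CPM in MIP and 397 CPM in control (-0.75), and Ndst4, an enzyme that modifies heparan sulfate, at 206 CPM and 360 CPM (-0.81). Abi3bp was counted in 34.7% of MIP and 33.3% of control Tfap2d neurons, so most of them held no UMI of it. Ndst4 was counted in 41.0% and 44.7%. Kcnip4, a regulator of potassium channels, stood at 10415 CPM in MIP and 8592 CPM in control (0.28), the highest level of the selecting genes. Cdh12, a cadherin, stood at 383 CPM and 348 CPM (0.14), and Cntn6, a contactin of the neuronal surface, at 459 CPM and 495 CPM (-0.11). Tfap2d had a ratio of -0.23, which TMM scaling took to -0.07. Of the 9 genes of the Kv4 potassium channel complex, which Kcnip4 belongs to, 0 were past 1.5-fold, and Dpp10 had the lowest ratio, -0.56, with 1921 CPM in MIP and 2831 CPM in control. Among 17 enzymes of heparan sulfate described, 1 was higher and 4, Ndst4 among them, were lower, shares near the 5.71% and 17.8% over all genes. Ext1, which builds the chain, stood at 350 CPM in MIP and 779 CPM in control (-1.15).

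Many genes of the circadian clock, whose levels vary over the day, were higher in MIP. The labels give no time of dissection for either library. Of 23 described, 13 were at least 1.5-fold higher and 0 lower, beside 5.71% and 17.8% of all 13484 genes. The median log2 ratio was 0.74, against -0.12 over all genes. Per1 had 88 UMIs (15.9 CPM) in MIP and 14 UMIs (5.39 CPM) in control, and Per2 had 102 UMIs (18.4 CPM) and 18 UMIs (6.93 CPM). Both encode repressors of the clock, and their ratios were 1.56 and 1.41. The repressors Cry1 and Cry2 had ratios of 1.07 and 0.87, and the nuclear receptors Nr1d1 and Nr1d2 of 1.77 and 1.03, with 29 and 4 UMIs of Nr1d1. The activators Clock and Arntl stood at 129 CPM and 71.8 CPM in MIP, and at 120 CPM and 68.5 CPM in control, with ratios of 0.09 and 0.07. In cluster 6 alone 9 of 19 were higher and the median was 0.39. All other nuclei had 6 of 23 higher and a median of 0.22, with Per1 at 0.84, Per2 at 1.31, Cry1 at 1.17 and Cry2 at 0.90. Under TMM scaling 13 of 23 were higher and 0 lower. Slc17a6 excitatory nuclei had Per2 at 1.76 and Cry1 at 1.38, while the median of 19 clock genes there was -0.06.

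Genes of cholesterol synthesis were lower in MIP. Of 19 described, 15 were at least 1.5-fold lower and 0 higher, beside 17.8% and 5.71% of all 13484 genes. The median log2 ratio was -0.74, against -0.12 over all genes, and 9 of the 19 were lower under TMM scaling. Fdps and Lss, which make farnesyl diphosphate and lanosterol, stood at 20.8 CPM and 9.22 CPM in MIP, and at 57.7 CPM and 25.4 CPM in control, with ratios of -1.47 and -1.46. Srebf2, the transcription factor that drives the pathway, had a ratio of -0.55. Acaca and Srebf1, which serve fatty acid synthesis, had ratios of -0.12 and 0.21. The values were lower within each cluster, with 16 of 18 genes and a median of -0.94 in cluster 6, and 12 of 15 in cluster 20. Other nuclei were lower as well, by a median of -0.45 and 4 of 20 genes past 1.5-fold over all of them, and by -0.63 and 10 of 18 in Slc17a6 excitatory nuclei.

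Some genes of oxidative phosphorylation and of immature neurons were lower in MIP, as were 17.8% of all genes. Of 30 genes of oxidative phosphorylation 11 were at least 1.5-fold lower and 0 higher, with a median of -0.46, against -0.74 over all other nuclei, and 6 were lower under TMM scaling. Cox7c, a subunit of cytochrome oxidase, stood at 78.1 CPM in MIP and 145 CPM in control. Of 19 genes of immature neurons 7 were lower and 0 higher, and 6 were lower under TMM scaling, with a median of -0.37, against -0.48 over all other nuclei. Gap43 and Dclk1, of growing axons and microtubules, had ratios of -0.01 and 0.24. Tmsb10, an actin-binding peptide, stood at 79.8 CPM in MIP and 170 CPM in control, and Tubb2b, a tubulin of young neurons, at 149 CPM and 263 CPM. Nfia, a transcription factor of gliogenesis and neuronal maturation, stood at 185 CPM in MIP and 431 CPM in control (-1.22), with a ratio of -1.06 in Slc17a6 excitatory nuclei and -0.05 over all other nuclei. Mature neuron genes stayed within 1.5-fold in 14 of 15 cases, with a median of 0.10.

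Immediate early genes, which activity induces, leaned higher on few UMIs. Of 17 described, 7 were at least 1.5-fold higher and 0 lower, beside 5.71% and 17.8% of all genes. The median was 0.44, against -0.02 over all other nuclei. Fos had 18 UMIs in MIP and 2 in control, and Egr1 had 35 and 8. Bdnf, a neurotrophin, had 126 and 34 UMIs, with a ratio of 0.80 (interval 0.24 to 1.39). Nr4a1 and Homer1, with more UMIs, had ratios of 0.30 and 0.00. In cluster 6 the median of 12 was 0.19, with 4 of them higher and 1 lower. Stat3, of the interleukin 6 pathway, had 163 UMIs in MIP and 32 in control (1.26, interval 0.71 to 1.85), and 2 of the 9 genes described in that pathway were higher, 1 was lower. Of 16 glucocorticoid response genes 5 were higher and 1 lower, led by Per1, with Fkbp5, a co-chaperone of the receptor, at 73.6 CPM in MIP and 51.6 CPM in control.

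Receptor and potassium channel genes differed little, beside 5.71% of all genes at least 1.5-fold higher in MIP and 17.8% lower. Of 27 glutamate receptor genes 0 were higher and 3 lower, with Grik3, a kainate receptor subunit, at 65.1 CPM in MIP and 131 CPM in control. Of 18 GABA and glycine receptor genes 1 was higher and 1 lower, the higher being Glra3 at 101 CPM in MIP and 51.6 CPM in control. Of 29 potassium channel genes 1 was higher and 1 lower. Axon guidance genes, pallial transcription factors and cadherins were past 1.5-fold at shares near or above those over all genes. Of 37 axon guidance genes 4 were higher and 8 lower, among them Epha4 at 61.3 CPM in MIP and 135 CPM in control. Of 34 pallial transcription factors 4 were higher and 9 lower; their median was -0.12, the same as over all genes, while TMM scaling gave 7 higher, 6 lower and a median of 0.04. Mef2c, an activity-dependent factor, stood at 1220 CPM in MIP and 813 CPM in control (0.58). Of 14 classical and type II cadherins 1 was higher and 3 lower, with Cdh9 at 333 CPM in MIP and 198 CPM in control, and Cdh6 at 49.0 CPM and 139 CPM. Meis2, a homeobox factor of amygdala and striatum, stood at 532 CPM in MIP and 948 CPM in control (-0.84), and Trpc4, a cation channel of lateral septum and amygdala, at 48.3 CPM and 120 CPM (-1.31). Both were lower in each cluster, Meis2 with ratios of -0.87 and -1.19 and Trpc4 with -1.27 and -2.13 in clusters 6 and 20.

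**Figure D5:**
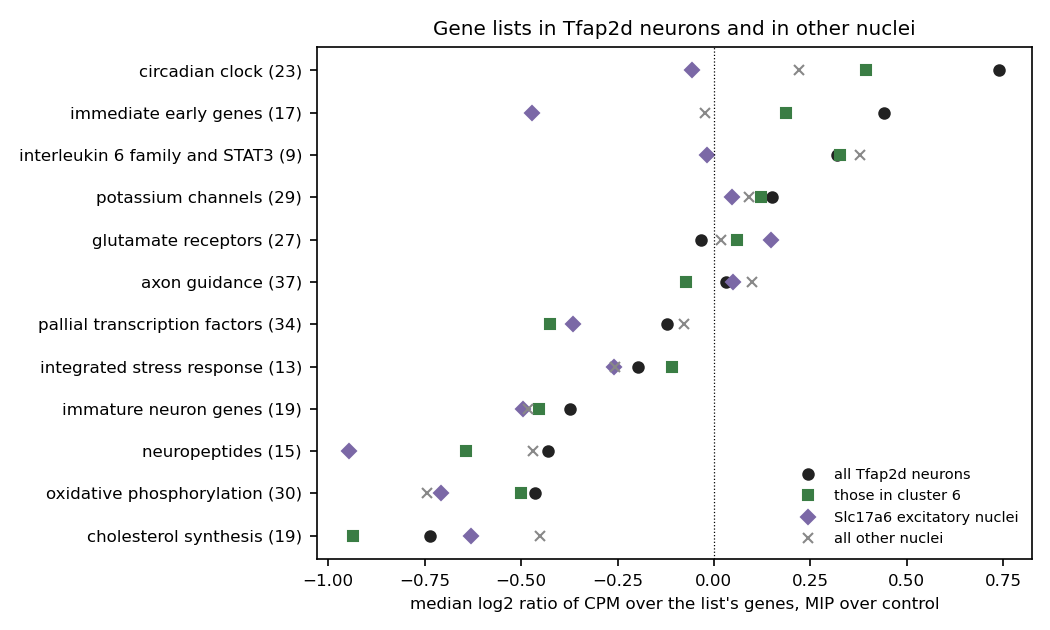
Median log2 ratio of CPM, MIP over control (x axis), over the genes of 12 lists, with the number of genes described in all Tfap2d neurons in parentheses; circles are all Tfap2d neurons, squares those in cluster 6, diamonds Slc17a6 excitatory nuclei and crosses all other nuclei. The clock genes lie at 0.74 in Tfap2d neurons and 0.22 in all other nuclei, and cholesterol synthesis at -0.74 and -0.45.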

How the data were processed

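Nuclei of frozen mouse SVZ were counted in 2 libraries, MIP and control, grouped by the labels. Whole-number UMI counts were deposited for each gene and barcode. The authors made them with Cell Ranger 5.0.1 on mm10, per the file headers for the program and per the submitters' processing notes for the build. For Tfap2d neurons of each library UMIs were summed, divided by their total and compared as log2 ratios, with exact conditional Poisson intervals. Shares have Clopper-Pearson intervals. Both kinds, and the limit for a count of 0 (3 counts), cover counting error only.

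Nuclei and gene lists were chosen with earlier results of these data known. Named genes were the 10 highest and the 10 lowest by the interval bound nearest to 0, requiring 60 UMIs in the library with more, without mitochondrial, ribosomal protein, haemoglobin and sex-linked genes. The 25 identity genes needed 60 UMIs in each library. From each list with 5 or more genes of at least 20 UMIs, the 3 of highest level and the 3 furthest from a ratio of 1 could be named. Arntl, Cry1, Nr1d2, Srebf1, Tubb2b, Neurod2, Neurod6, Kit, Samd5, Eomes and Nr4a2 were picked after their values were seen. A few genes and 1 class that these rules cover are left out here.

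Clustering used Scanpy 1.11.5 with 3000 variable genes, 40 principal components, 20 neighbours and Leiden resolution 1 (leidenalg 0.10.2), without the 11 genes of the rule. Scrublet marked 1051 MIP and 841 control nuclei as doublets; none was removed. TMM factors came from edgeR 4.0.16, and gene positions from GENCODE release M21. Interval scripts were tested on simulated data.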

Additional observations from a re-analysis of the deposited data

How the results depend on the processing

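The share of Tfap2d neurons kept a log2 ratio between 1.59 and 1.88 under stricter forms of the rule, other filters on genes and mitochondrial UMIs, removal of the highest Scrublet scores or of shared barcodes, and thinning. It was 1.34 in the largest cluster alone, 2.41 without it, 3.09 in cluster 20 alone, 1.5 among Slc17a6 or Slc17a7 nuclei and 1.48 without cluster 0. Genes higher and lower in MIP numbered 405 and 1383 with at least 60 UMIs, 1577 and 5078 with 1 UMI in each library, and 1358 and 1526 with TMM; thinning gave 980 lower, and cluster 20 alone 1459 higher. These counts change with the genes described and, for TMM, with the shift. Among Tfap2d neurons chosen anew after thinning, the transporter share was 40% in MIP and 40.5% in control; the thinned shares in the report are of the nuclei chosen before thinning. It was 86.7% and 90.9% in cluster 20. The largest cluster held 40.5% of MIP Tfap2d neurons after thinning, 89.2% of MIP and 83.0% of control ones at resolution 0.5, and 26.1% and 32.7% at resolution 2. Of 298 values of the 20 named genes under 15 alternatives, 235 stayed within the interval, 60 moved outside it and 3 changed sign; genes chosen by extreme ratios keep their sign easily. Of those 60, 13 came from thinning, among them Trps1 at 0.55, Reln at 0.64, Sorcs3 at 0.49 and Hspa14 at 2.50, and 13 from leaving out the largest cluster. In cluster 20, Trps1 was -0.55, Ebf1 -0.91 and Gm20559 0.31, and the cause was not tested. The alternatives on cluster 20, without the largest cluster, on shared barcodes and without cluster 0 were chosen after seeing the data. No paired analysis was possible because each group has 1 library. Depth limits genes with under 20 UMIs, which are not described.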
